A study of Mus musculus with 45 samples.

Results

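The effect of removing ZBP1 was measured in the ileum of mice whose intestinal epithelium lacks FADD. 10 of the 45 arrays of the series were compared: 5 from FADD IEC-KO Zbp1 -/- mice (called double mutants below) and 5 from FADD IEC-KO mice, with 1 mouse per array and the group taken from the genotype in the sample title. IEC-KO stands for a knockout in intestinal epithelial cells, and both groups carry that deletion of Fadd. The labels write Zbp1 -/- without the epithelial mark. They name no Cre line, sex or shared litter. The p-values thus measure only the spread between samples within groups, pooled in the main fit over the 9 groups of the series. The animals were specific-pathogen-free, fed chow and 11 weeks old by the sample descriptions (10 to 12 weeks by the series' design text; the source field gives a range whose upper end differs in every sample, from 12 to 56 weeks over the 45). Fadd fl/fl mice (floxed alleles, undeleted), FADD IEC-KO Mlkl -/- mice and FADD IEC-KO RIPK3 IEC-KO mice, 5 of each, served for levels beside these. Mice lacking only ZBP1 were not analysed here.

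ZBP1 senses nucleic acids in the Z conformation and binds the kinase RIPK3, which phosphorylates MLKL. MLKL then breaks the plasma membrane, a form of cell death called necroptosis. FADD brings caspase-8 to signalling complexes, where the protease holds necroptosis in check, and epithelial loss of FADD in the small intestine is known for Paneth cell loss and inflammation. Zbp1 is itself an interferon-induced gene, one of many antiviral genes that interferon switches on.

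Whole ileum was measured, so fewer cells of a type and less RNA per cell cannot be told apart. Array medians lay between 6.36 and 6.44 on the log2 intensity scale, and arrays of the same group correlated across genes at r = 0.979 to 0.99. The mean level of absorptive enterocyte genes was 9.93 to 10.67 in the double mutants, 9.83 to 10.36 in FADD IEC-KO and 9.95 to 10.58 in Fadd fl/fl. Intensities of different probes are not comparable, so these levels do not by themselves test the tissue label. Y-linked genes were low in 3 mice and high in 2 mice of both groups, and high in all 5 FADD IEC-KO RIPK3 IEC-KO mice, so sex is unbalanced in comparisons with that group. The median within-group SD over genes was 0.214 in the double mutants and 0.190 in FADD IEC-KO, against 0.156 to 0.194 in the other 7 groups.

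The targeted genes were examined first. Fadd, the gene deleted in both groups, read 6.53, 5.75, 6.14, 6.19 and 6.23 in double mutants 1 to 5 and 7.32, 5.96, 6.31, 6.45 and 6.21 in FADD IEC-KO replicates 1 to 5. FADD IEC-KO replicate 1 was thus close to the floxed mice, which lay between 7.46 and 7.61, whereas the other mice of both groups lay well below them. Zbp1 read 6.46, 5.86, 6.02, 5.66 and 6.17 in the double mutants and 7.94, 6.69, 7.45, 5.83 and 6.91 in FADD IEC-KO. The groups overlapped because FADD IEC-KO replicate 4 was as low as a double mutant. The log2 fold change was -0.93 ± 0.29 (SE, 5 mice per group, limma adjusted p = 0.0653), so Zbp1 did not pass the test against FADD IEC-KO. It did pass against Fadd fl/fl (-1.11 ± 0.29, limma adjusted p = 0.0091) and against FADD IEC-KO Mlkl -/- (-1.89 ± 0.29, limma adjusted p = 6.29e-05). Against FADD IEC-KO RIPK3 IEC-KO (5.73 to 7.54) Zbp1 did not pass either (-0.81), and the lowest of those mice was within the double mutants' range. The position of the Zbp1 probe within the gene is not given in the sources used here, so its level is no check of the deletion. The other necroptosis genes were level between the groups within their errors: Casp8 changed by -0.06 ± 0.14 on the log2 scale, Ripk3 by 0.02 ± 0.16 and Mlkl by 0.13 ± 0.19, none past the threshold, and the sign of each of these turned under some alternative processing.

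Loss of ZBP1 changed 648 of 19494 measured genes at an adjusted p under 0.05 in limma (called below). Of these, 167 rose (0.857% of the genes) and 481 fell (2.47%). The changes were small: 12 called genes moved at least 2-fold, 4 up and 8 down, and the median called change was 0.40 upward and -0.42 downward on the log2 scale. All 5 double mutants lay above all 5 FADD IEC-KO mice in 83 of the 167 risers, and below them in 214 of the 481 fallers; over all genes such complete separation occurred upward in 0.97% and downward in 1.8%. At an unadjusted p under 0.05, 6.96% of all genes were higher and 10.8% lower, and the median change over all genes was -0.01. After quantile normalization 247 genes rose and 378 fell, so the size of the excess of falls over rises depends on the scaling. These calls rest on a spread pooled over the 9 groups. When these 2 groups were fitted alone no gene was called (smallest adjusted p = 0.109), and 2354 genes had an unadjusted p under 0.05. All 648 were among these, but they had been selected for a small p on the same mice. That fit repeats the same fold changes, so the kept signs of the 648 are no check. Leaving out 1 mouse at a time gave 239 calls (without FADD IEC-KO replicate 3) to 1041 (without FADD IEC-KO replicate 4), and 143 of the 648 calls, 43 rises and 100 falls, held in every such fit. The count was 298, 418 and 246 in the absence of double mutants 1, 4 and 5, rose to 1010 in that of double mutant 3, and was 336 and 309 in that of FADD IEC-KO replicates 2 and 5. Without FADD IEC-KO replicate 1, the mouse with the high Fadd value, 597 genes were called.

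**Figure D1:**
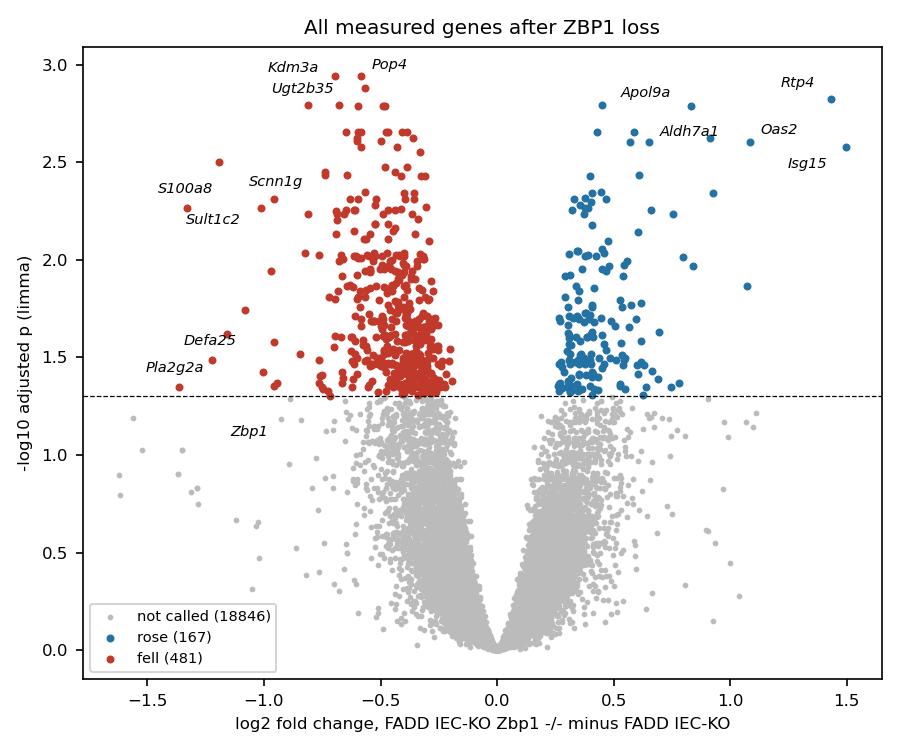
Log2 fold change (x axis) of the 19494 measured genes in FADD IEC-KO Zbp1 -/- against FADD IEC-KO, with -log10 of the limma adjusted p (y axis); the dashed line marks an adjusted p of 0.05 and each point is a gene. Interferon-induced genes Isg15, Rtp4 and Oas2 lie farthest to the right among called genes, S100a8 and Pla2g2a farthest to the left, and Zbp1 lies just below the line.

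Of 33 measured genes of a type I interferon list, which holds antiviral genes, 9 rose without ZBP1, 0 fell and 24 did not pass. Over all genes 0.857% rose and 2.47% fell. None of the 33 separated all mice. Of the 33, 25 were higher at an unadjusted p under 0.05 (6.96% of all genes). All 33 had a positive change, with a median of 0.74 (-0.01 over all genes). With 1 mouse left out at a time the number that rose ranged from 7 (without double mutant 1) to 19 (without double mutant 4), with 16 without FADD IEC-KO replicate 1, and the median from 0.47 (without double mutant 3) to 0.91. In the fit of the 2 groups alone 0 were called and 20 had an unadjusted p under 0.05. The genes that rose were Isg15, Rtp4, Oas2, Oasl2, Oas1g, Irf7, Oas1a, Oas3 and Xaf1.

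Isg15, a ubiquitin-like protein joined to targets during the interferon response, read 7.67, 6.67, 7.62, 5.87 and 6.98 in the double mutants and 5.94, 5.21, 5.60, 5.24 and 5.35 in FADD IEC-KO. The groups overlapped only through double mutant 4 and FADD IEC-KO replicate 1. The log2 fold change was 1.49 ± 0.28 (SE, limma adjusted p = 0.00264). Rtp4, an interferon-induced chaperone of receptors, read 7.03, 6.08, 6.70, 5.61 and 6.20 against 6.06, 4.60, 4.25, 4.45 and 5.11, again with overlap through the same mice (1.43 ± 0.23, limma adjusted p = 0.0015). The synthetases of 2'-5' oligoadenylate, which activate the antiviral ribonuclease RNase L, and their relatives had 6 genes on the list, of which 5 rose (Oasl1 did not pass, 0.20 ± 0.24). Oas2 read 6.92, 5.99, 6.58, 5.76 and 6.81 against 5.84, 5.16, 5.11, 5.12 and 5.42 (1.08 ± 0.20, limma adjusted p = 0.0025). Oas1g rose by 0.93 ± 0.19, Oas1a by 0.84 ± 0.19 and Oas3 by 0.80 ± 0.18, while the related Oasl2 rose by 1.07 ± 0.25 and lost its call without double mutant 1 (0.92, limma adjusted p = 0.0615). These paralogs are alike in sequence and their probes may share signal. Irf7, the transcription factor that amplifies interferon production, read 10.32, 9.79, 10.68, 9.84 and 10.12 against 9.82, 9.61, 8.98, 8.71 and 9.07 (0.91 ± 0.17, limma adjusted p = 0.00237). The groups overlapped through double mutant 2 and FADD IEC-KO replicate 1 at 9.79 and 9.82. Xaf1, a pro-apoptotic interferon target, rose by 0.75 ± 0.22 (limma adjusted p = 0.0448) and lost its call without any of 7 mice (0.59 to 0.76, double mutants 1, 3 and 5 and FADD IEC-KO replicates 2 to 5). The 24 members that did not pass ranged from 0.02 to 1.10; among these, Usp18, the protease that removes ISG15, had 1.07 ± 0.34 and Trim30a 1.10 ± 0.35.

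The mean level of the 33 genes was 7.90, 7.22, 8.01, 6.85 and 7.64 in double mutants 1 to 5 and 7.46, 6.75, 6.74, 6.47 and 6.92 in FADD IEC-KO replicates 1 to 5. Double mutants 1, 3 and 5 were above every FADD IEC-KO mouse, whereas double mutants 2 and 4 lay within their range. Fadd fl/fl mice lay between 6.91 and 7.41, FADD IEC-KO RIPK3 IEC-KO mice between 6.75 and 7.54, and FADD IEC-KO Mlkl -/- mice, at 7.93 to 8.61, were highest. Against Fadd fl/fl, 9 of the 33 genes were called higher and 0 lower in the double mutants (4.78% and 7.08% of all genes), with a median of 0.40. In FADD IEC-KO against Fadd fl/fl, 0 were called higher and 2 lower (1.81% and 1.92% of all genes), with a median of -0.29; these comparisons share arrays with the first. Against FADD IEC-KO Mlkl -/- the double mutants were lower: 0 of 33 were called higher and 10 lower (1.76% and 2.36% of all genes), with a median of -0.61. Against FADD IEC-KO RIPK3 IEC-KO, 1 of 33 (Oas2, 0.72, limma adjusted p = 0.0486) was called higher and 0 lower (0.569% and 1.45% of all genes), with a median of 0.43.

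**Figure D2:**
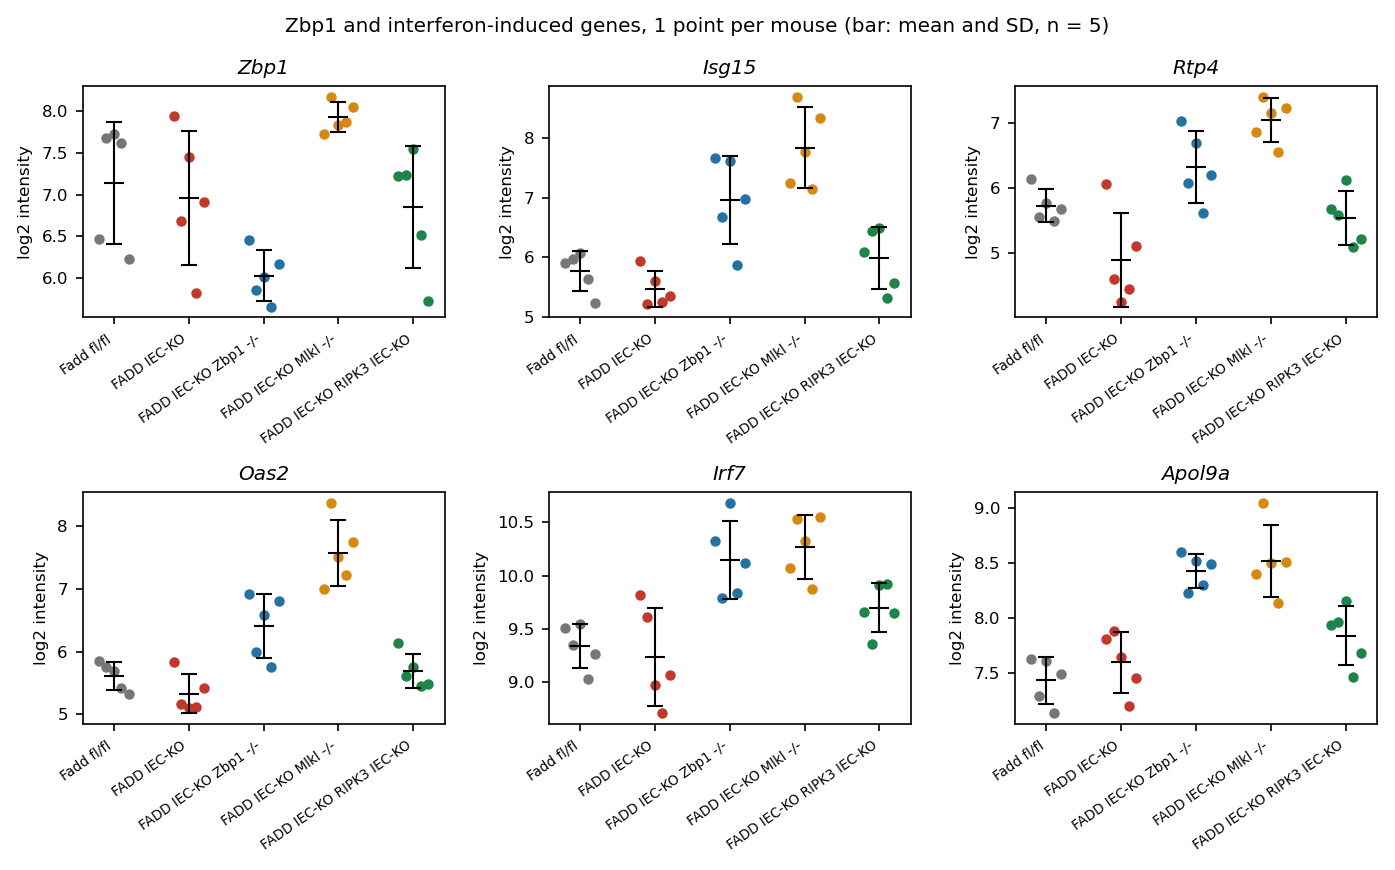
Log2 intensity (y axis) of Zbp1 and of 5 interferon-induced genes in each of 5 genotypes (x axis); points are mice and bars the mean and SD of 5 mice. The double mutants lie above most FADD IEC-KO mice for Isg15, Rtp4, Oas2, Irf7 and Apol9a, and the medians of FADD IEC-KO Mlkl -/- mice for Isg15, Rtp4 and Oas2 (7.77, 7.16 and 7.51) exceed those of the double mutants (6.98, 6.20 and 6.58).

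Promoter sequences are shown because the genes above moved together and interferon acts on many of them through a promoter element. The RefSeq table (GRCm38.p6) held 7 of the 9 genes. The 250 bases before each start were searched on both strands for GAAANNGAAA (TTTCNNTTTC on the other strand), the core of that element; overlapping matches were counted. It was present in 4 of the 7, namely Isg15 with 3 matches, Oas1a and Oas1g with 2 matches each and Oas3 with 1 match, against 544 of 15683 measured genes in the table (3.47%; 3.46% of all 27025 genes). Among list members that were not called, 9 of 17 held it, so its presence did not mark the called members. The sequences of the 4 genes run 5′ to 3′ on the gene's strand, with the matches in capitals.
Isg15 (chr4:156200819-156201068, minus strand): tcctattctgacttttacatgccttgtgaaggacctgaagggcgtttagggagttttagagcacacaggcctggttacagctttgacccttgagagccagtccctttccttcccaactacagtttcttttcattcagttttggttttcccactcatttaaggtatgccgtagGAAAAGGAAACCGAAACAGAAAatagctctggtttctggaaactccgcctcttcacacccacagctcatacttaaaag
Oas1a (chr5:120907526-120907775, minus strand): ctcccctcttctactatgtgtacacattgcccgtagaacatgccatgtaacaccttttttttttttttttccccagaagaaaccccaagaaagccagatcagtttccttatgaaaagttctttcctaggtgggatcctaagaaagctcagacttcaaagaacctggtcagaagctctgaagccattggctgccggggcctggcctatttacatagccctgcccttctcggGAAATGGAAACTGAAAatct
Oas1g (chr5:120887614-120887863, minus strand): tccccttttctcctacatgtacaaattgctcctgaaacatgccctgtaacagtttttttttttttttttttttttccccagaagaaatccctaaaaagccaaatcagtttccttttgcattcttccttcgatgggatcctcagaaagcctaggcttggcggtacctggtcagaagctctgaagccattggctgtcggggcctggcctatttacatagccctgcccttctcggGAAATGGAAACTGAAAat
Oas3 (chr5:120777660-120777909, minus strand): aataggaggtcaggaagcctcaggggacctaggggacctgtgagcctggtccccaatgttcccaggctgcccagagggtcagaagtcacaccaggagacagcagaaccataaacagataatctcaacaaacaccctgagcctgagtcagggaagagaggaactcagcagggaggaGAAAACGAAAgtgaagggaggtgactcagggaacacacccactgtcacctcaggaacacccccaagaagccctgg
In Isg15 the matches form 1 overlapping run that begins 78 bases before the start, while in Oas1a and Oas1g they lie within 20 bases of it. Of the 131 risers that RefSeq lists, 10 (7.63%) held the motif, and of the 394 fallers 5 (1.27%). The 10 include the 4 genes printed above, so their share is not a separate result. The Oas1a and Oas1g sequences are closely alike.

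Genes of the interferon gamma response did not pass the test. Of 20 measured genes 0 were called, 1 was higher at an unadjusted p under 0.05 and the median was 0.15. Irf1, a transcription factor of that response, read 10.27, 9.91, 10.25, 9.61 and 10.06 in the double mutants and 10.48, 10.10, 9.71, 9.26 and 9.65 in FADD IEC-KO, with full overlap (0.18 ± 0.19, limma adjusted p = 0.686). Nos2, the inducible nitric oxide synthase, had 0.13 ± 0.31, and Irgm1, an immunity-related GTPase, 0.24 ± 0.28. Neither list of antigen presentation genes had a called member. Of 14 class I genes, 5 were higher at an unadjusted p under 0.05 and the median was 0.34, with H2-K1 at 0.34 ± 0.12, the class I light chain B2m at 0.10 ± 0.10 and the proteasome activator Psme1 at 0.06 ± 0.10. Of 7 class II genes 0 reached an unadjusted p under 0.05, and their median was 0.45. These medians leaned on 1 mouse. Without FADD IEC-KO replicate 4 they were -0.10 for class II, 0.14 for class I and -0.08 for interferon gamma. The type I interferon median was then 0.55. FADD IEC-KO replicate 4 stood at a mean level of 6.83 over the class II genes, against 9.11 to 9.61 in the rest of its group and 8.74 to 9.50 in the double mutants. It was also lowest of the 10 mice in the mean of T cell markers (5.55, the others 5.94 to 6.93) and of macrophage markers (6.10, the others 6.43 to 7.24). Between the groups, 0 of 18 T cell markers (median 0.17) and 0 of 14 macrophage markers (median -0.12) were called. The part of these cells in the interferon genes was not tested.

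Among risers that separated all mice, the largest change was that of Apol9a, an apolipoprotein L gene induced by interferon. It read 8.60, 8.23, 8.52, 8.30 and 8.49 in the double mutants and 7.81, 7.88, 7.64, 7.20 and 7.45 in FADD IEC-KO (0.83 ± 0.14, limma adjusted p = 0.00162). Aldh7a1, an aldehyde dehydrogenase of lysine breakdown, read 7.38, 7.50, 7.77, 7.69 and 7.69 against 6.96, 6.66, 6.85, 7.09 and 7.20 (0.65 ± 0.12, limma adjusted p = 0.0025). Both genes were higher in the double mutants than in Fadd fl/fl as well, with limma adjusted p = 7.23e-06 for Apol9a (7.13 to 7.63 in the floxed mice) and a difference of 0.54 ± 0.12 for Aldh7a1. Fstl1, a secreted glycoprotein of mesenchymal cells, rose by 0.54 ± 0.13, Scnm1, a splicing factor, by 0.57 ± 0.11, Morn4 by 0.61 ± 0.12 and Tex15, a germ-cell gene at a low level here, by 0.54 ± 0.12. The calls of these 6 genes held without any 1 of the 10 mice. The remaining largest separated rises were those of Dntt (0.69 ± 0.18, at the dim levels of 3.04 to 3.70 against 2.20 to 3.01), Gsta2 (0.67 ± 0.19), Sptb (0.60 ± 0.17), Gng3 (0.55 ± 0.16), Bhlhe23 (0.54 ± 0.15) and Paqr6 (0.54 ± 0.15). Without FADD IEC-KO replicate 3 none of these last 6 passed (limma adjusted p = 0.0608 to 0.104, changes of 0.49 to 0.66), Dntt lost its call also without double mutant 4, and each of the others without at least 5 further mice, in either group. Gsta2, a glutathione transferase, was the 1 of them that was far above the floxed level: it read 10.13 to 10.76 in the double mutants, 9.47 to 10.06 in FADD IEC-KO and 8.18 to 8.80 in Fadd fl/fl.

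Of the neutrophil, antimicrobial and cytokine genes on the lists, 1 was called. S100a8, a calcium-binding protein of neutrophils and inflamed epithelium, read 2.97, 3.50, 2.78, 2.89 and 3.22 in the double mutants and 4.43, 4.23, 5.69, 3.06 and 4.59 in FADD IEC-KO. The double mutants were near the level of Fadd fl/fl mice (2.72 to 3.20), as was FADD IEC-KO replicate 4, while the other 4 FADD IEC-KO mice were higher than any of them. S100a8 fell by 1.33 ± 0.28 on the log2 scale (limma adjusted p = 0.00541), a call that held without any 1 mouse. The double mutants were as dim as the mean of the Y-linked genes in the 6 mice where it was low (2.96 to 3.49), so the measured size of the fall may understate it. It was the called member of the neutrophil markers (1 of 14, median -0.09) and of the epithelial antimicrobial genes (1 of 22, median -0.01). Over all genes 2.47% fell. The mean of the neutrophil markers was 4.74 to 5.06 in the double mutants and 4.82 to 5.46 in FADD IEC-KO; its part in the fall was not tested. Of 28 genes for cytokines and NF-kB signalling 0 were called. Il1rn, the interleukin-1 receptor antagonist, read 5.89, 8.51, 8.38, 7.14 and 8.47 in the double mutants and 7.90, 8.57, 8.71, 6.91 and 9.31 in FADD IEC-KO, against 5.33 to 5.66 in Fadd fl/fl. Double mutant 1 was close to the floxed mice and the other 4 were not. The change was -0.60 ± 0.40 against FADD IEC-KO (limma adjusted p = 0.459) and 2.17 ± 0.40 against Fadd fl/fl (limma adjusted p = 0.000288). Tnf, the cytokine upstream of FADD, had -0.40 ± 0.25 against FADD IEC-KO and 1.04 ± 0.25 against Fadd fl/fl (limma adjusted p = 0.00419).

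Scnn1g, which encodes the gamma subunit of the epithelial sodium channel, read 4.64, 4.46, 4.25, 4.76 and 4.61 in the double mutants and 5.07, 6.51, 5.22, 5.17 and 5.54 in FADD IEC-KO, without overlap. It fell by 0.96 ± 0.19 (limma adjusted p = 0.00485). Fadd fl/fl mice had 4.18 to 4.57. The transporter Slc16a6 likewise lay at 6.47 to 7.06 in the double mutants (median 6.74) and at 7.15 to 7.91 in FADD IEC-KO (median 7.40), without overlap, and at 6.30 to 6.96 in Fadd fl/fl. It fell by 0.74 ± 0.14 (limma adjusted p = 0.00355). Neither gene differed between the double mutants and Fadd fl/fl past the threshold (0.20 ± 0.19 and 0.04 ± 0.14).

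Other genes that separated all mice fell into or below the range of the floxed mice. Kif18a, a mitotic kinesin, fell by 0.81 ± 0.17, the homologous recombination gene Rad51b by 0.83 ± 0.18, the splicing regulator Mbnl3 by 0.74 ± 0.14 and the glucuronosyltransferase Ugt2b35 by 0.81 ± 0.14. Ugt2b35 read 6.30, 6.80, 6.62, 6.06 and 6.41 in the double mutants and 7.16, 7.50, 7.26, 7.05 and 7.27 in FADD IEC-KO, and it was lower than in Fadd fl/fl, FADD IEC-KO Mlkl -/- and FADD IEC-KO RIPK3 IEC-KO as well (-0.60 ± 0.14, -0.86 and -0.78). Calls of the 6 genes Scnn1g, Slc16a6, Kif18a, Rad51b, Mbnl3 and Ugt2b35 held without any 1 mouse. The other largest separated falls were those of Defa25 (-1.22 ± 0.33, described below), the secreted glycoprotein Stc2 (-1.16 ± 0.30), the endothelial adhesion receptor Selp (-1.08 ± 0.27), Mtfr2 (-0.97 ± 0.22), the eosinophil chemokine Ccl11 (-0.94 ± 0.27) and Ccdc3 (-0.76 ± 0.22). Without FADD IEC-KO replicate 3 none of these passed (limma adjusted p = 0.0532 to 0.139, changes of -1.21 to -0.79). Stc2 and Selp also lost their calls without double mutant 4, and Stc2, Ccl11 and Ccdc3 without double mutant 1 and FADD IEC-KO replicate 5. Ccl11 and Ccdc3 lost them further without double mutants 2 and 5 and FADD IEC-KO replicate 1. The 3 genes with the smallest adjusted p, chosen after their values were seen, also fell: Pop4, a subunit of ribonuclease P (-0.58 ± 0.09), the histone demethylase Kdm3a (-0.70 ± 0.11) and the RNA-binding protein gene Larp4 (-0.57 ± 0.09), with limma adjusted p = 0.00114, 0.00114 and 0.00131. The sulfotransferase Sult1c2, named for the same reason, fell by 1.01 ± 0.21.

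No Paneth cell gene on the lists passed as higher without ZBP1. Paneth cells sit at the crypt base and secrete alpha-defensins, lysozyme and other antimicrobial proteins. Of 20 measured alpha-defensins, 1 fell and 0 rose (2.47% and 0.857% of all genes). All 20 had a negative change, 14 were lower at an unadjusted p under 0.05 (10.8% of all genes), and the median was -1.17. The defensin probes gave 18 distinct profiles over the 45 arrays, and these genes are near-identical copies, so single members are uncertain and the 20 are not separate measurements. The called member, Defa25, read 6.64, 6.05, 6.71, 6.75 and 6.18 in the double mutants, 8.48, 7.30, 7.72, 7.91 and 7.03 in FADD IEC-KO and 8.47 to 9.61 in Fadd fl/fl. The double mutants lay below every FADD IEC-KO mouse (-1.22 ± 0.33, limma adjusted p = 0.0325), and the call was lost without double mutants 1, 2 or 5 or FADD IEC-KO replicates 1 or 3 (-1.26 to -1.02). The mean of all 20 defensins was 8.79, 6.91, 6.77, 8.21 and 7.47 against 9.87, 8.08, 9.10, 9.03 and 7.61, with overlap, and 11.03 to 11.48 in Fadd fl/fl. FADD IEC-KO replicate 1, the mouse with the high Fadd value, had the highest defensin mean of the 10 mice. Without it 5 defensins were lower at an unadjusted p under 0.05, without double mutants 2 or 3 the number was 6, and with 1 mouse left out the median ranged from -1.42 to -0.91 and 0 to 3 fell. Of the 20, all were called lower in the double mutants than in Fadd fl/fl, 19 lower than in FADD IEC-KO Mlkl -/- and 20 lower than in FADD IEC-KO RIPK3 IEC-KO, with medians of -3.80, -1.92 and -3.20.

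Of 14 other Paneth cell genes 1 fell and 0 rose (2.47% and 0.857% of all genes), with a median of -0.50. The called gene was Pla2g2a, a secreted bactericidal phospholipase, which read 7.13, 8.69, 7.71, 7.40 and 8.61 in the double mutants and 8.92, 9.41, 10.52, 8.37 and 9.14 in FADD IEC-KO (-1.36 ± 0.40, limma adjusted p = 0.0448). The groups overlapped through FADD IEC-KO replicate 4, and the call was lost without any of 7 mice (-1.54 to -1.05, double mutants 1, 3, 4 and 5 and FADD IEC-KO replicates 2, 3 and 5). In FADD IEC-KO it had been level with Fadd fl/fl (-0.27 ± 0.40). The pentraxin gene Mptx2 read 6.27, 3.57, 4.92, 4.87 and 5.90 against 8.04, 5.66, 7.17, 6.97 and 5.77 and did not pass (-1.62 ± 0.65, limma adjusted p = 0.161), nor did lysozyme, Lyz1 (-0.44 ± 0.32, limma adjusted p = 0.515).

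Of 19 proliferation genes of dividing crypt cells, 3 fell without ZBP1 and 0 rose (2.47% and 0.857% of all genes). In the fit of the 2 groups alone 0 were called. In the fit over all groups 14 were lower at an unadjusted p under 0.05 (10.8% of all genes) and the median was -0.35. The median had been 0.34 in FADD IEC-KO against Fadd fl/fl, which shares the FADD IEC-KO arrays. It was -0.03 in the double mutants against Fadd fl/fl. Mki67, a marker of cycling cells, read 9.59, 10.02, 10.09, 9.62 and 9.76 in the double mutants and 10.19, 10.41, 10.50, 10.02 and 10.57 in FADD IEC-KO, which overlapped through FADD IEC-KO replicate 4. It fell by 0.52 ± 0.11 (limma adjusted p = 0.00658), and this call held without any 1 mouse. Rrm1, a ribonucleotide reductase subunit, fell by 0.70 ± 0.18 and the replication clamp Pcna by 0.34 ± 0.09. Both lost their calls without double mutants 1 or 4 or FADD IEC-KO replicates 3 or 5 (Rrm1 -0.62 to -0.56, Pcna -0.34 to -0.24), and Pcna also without double mutant 5. The number of proliferation genes that fell ranged from 1 to 9 with 1 mouse left out: 1 without double mutants 1 or 4 or FADD IEC-KO replicates 3 or 5, 2 without double mutant 5, 5 without double mutant 2, 8 without double mutant 3 and 9 without FADD IEC-KO replicate 4.

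Of 12 crypt stem cell genes 2 fell, 0 rose and 8 were lower at an unadjusted p under 0.05, with a median of -0.28. Over all genes these shares were 2.47%, 0.857% and 10.8%. Slc12a2, the basolateral chloride co-transporter of crypt cells, read 9.50, 10.39, 10.29, 10.10 and 9.95 against 10.36, 10.91, 10.59, 10.72 and 10.70 (-0.61 ± 0.13, limma adjusted p = 0.00708). The groups overlapped only through double mutant 2 and FADD IEC-KO replicate 1, and the call held without any 1 mouse. Cdk6, a cell cycle kinase, fell by 0.49 ± 0.13 with all mice separated, but lost its call without double mutants 1 or 5 or FADD IEC-KO replicates 2, 3 or 5 (-0.50 to -0.41).

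Goblet cell genes were mixed, with 2 of 18 falling, 0 rising (2.47% and 0.857% of all genes) and a median of -0.04. Spink4, a secreted protease inhibitor of goblet cells, read 10.99, 11.55, 11.16, 11.37 and 11.09 in the double mutants and 11.66, 12.14, 12.03, 12.01 and 11.70 in FADD IEC-KO, so that all mice were separated. It fell by 0.68 ± 0.11 (limma adjusted p = 0.00161), stayed called without any 1 mouse, and was also lower than in Fadd fl/fl (-0.67 ± 0.11). Creb3l1, a transcription factor of secretory cells, fell by 0.60 ± 0.17 and lost its call without double mutants 1 or 4 or FADD IEC-KO replicates 2 to 5 (-0.61 to -0.43). Pyy, the hormone peptide YY, was the 1 called gene of 17 enteroendocrine genes (0.857% of all genes rose). It rose by 0.44 ± 0.12 (limma adjusted p = 0.0317), from 7.90 to 8.65 in FADD IEC-KO to 8.48 to 8.94 in the double mutants, with 8.67 to 9.04 in Fadd fl/fl, and lost its call without double mutants 1, 3 or 4 or FADD IEC-KO replicates 2, 3 or 5 (0.34 to 0.43). No gene of the tuft cell (13), absorptive enterocyte (23), ileal bile acid (15) or fetal-like repair (13) lists was called.

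**Figure D3:**
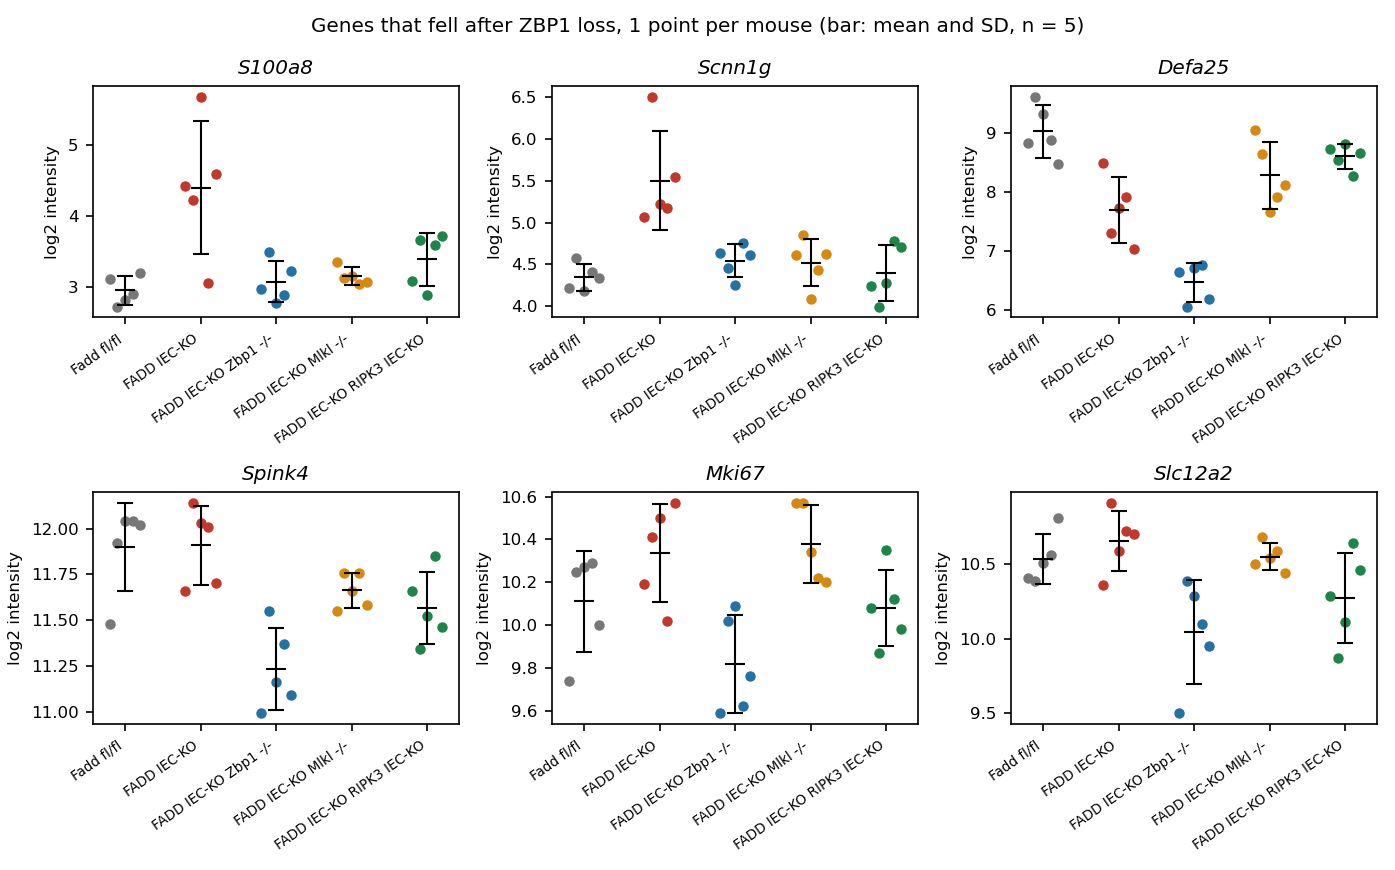
Log2 intensity (y axis) of 6 genes that fell in double mutants against FADD IEC-KO, in 5 genotypes (x axis); points are mice and bars the mean and SD of 5 mice. S100a8 and Scnn1g in the double mutants lie near the floxed level, whereas Defa25 and Spink4 lie below it.

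Among 28 genes of the cell death machinery 1 fell (3.57%) and 0 rose, and among 17 nucleic acid sensors and their regulators 1 fell (5.88%) and 0 rose; single calls in lists of this size are near the 2.47% of all genes that fell. The cell death gene was Casp6, an effector caspase, with 6.99, 7.36, 7.49, 6.97 and 7.09 in the double mutants and 7.73, 7.34, 7.57, 7.44 and 7.76 in FADD IEC-KO, where replicates 2 and 4 overlapped with the double mutants (-0.39 ± 0.10, limma adjusted p = 0.0187; not called without double mutants 1, 4 or 5 or FADD IEC-KO replicate 5, -0.36 to -0.34). The sensor list gene was Rnaseh2b, a subunit of the enzyme that removes ribonucleotides from DNA. It read 6.63, 6.80, 6.70, 6.11 and 6.75 against 7.26, 6.99, 7.15, 7.05 and 7.20, without overlap (-0.53 ± 0.12, limma adjusted p = 0.0101), and stayed called without any 1 mouse. Of 16 cholesterol synthesis genes Nsdhl fell (-0.38 ± 0.10; not called without double mutants 1, 4 or 5 or FADD IEC-KO replicates 2, 3 or 5, -0.39 to -0.30). Of 24 xenobiotic and glutathione genes 2 rose and 0 fell (0.857% and 2.47% of all genes). In this list 13 had a positive change and the median was 0.04. The risers were Gsta2 and the carboxylesterase Ces1f. Ces1f rose by 0.64 ± 0.19. Its call was lost without double mutants 1, 3, 4 or 5 or FADD IEC-KO replicates 2, 3 or 5 (0.48 to 0.72).

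Markers of the gut wall were examined beside these changes. Of 13 smooth muscle markers 0 were called, but all 13 had a positive change and the median was 0.41. Of the 13, 10 were higher at an unadjusted p under 0.05 (6.96% of all genes). Their mean level was 9.18 to 9.52 in the double mutants and 8.31, 8.64, 9.13, 9.53 and 8.96 in FADD IEC-KO. FADD IEC-KO replicate 4 was thus as high as the double mutants. With 1 mouse left out, 0 to 8 of the 13 were called higher. The 8 came without FADD IEC-KO replicate 4, in a fit that called 293 of all 19494 genes higher. Without FADD IEC-KO replicate 1, the lowest, the median was 0.24. Acta2 had 0.33 ± 0.15, Actg2 0.43 ± 0.24 and Tagln 0.54 ± 0.18. Of 10 fat markers 0 were called and the median was 0.60. Endothelial markers leaned the other way, while fibroblast and matrix markers leaned little. Of 15 fibroblast and matrix markers 0 were called, 9 had a negative change and the median was -0.09. Of 12 endothelial markers 0 were called, 11 had a negative change and the median was -0.21. Of 13 enteric nerve markers 11 had a positive change and the median was 0.21. Of these, 1 rose and 1 fell (0.857% and 2.47% of all genes). Tubb3 rose (0.42 ± 0.11) and was not called without double mutant 5 or FADD IEC-KO replicates 2 or 3 (0.34 to 0.40). The neuropeptide gene Vip fell (-0.75 ± 0.22). Vip was not called without double mutants 1, 4 or 5 or FADD IEC-KO replicates 2 to 5 (-0.82 to -0.56). The part of wall tissue in the falls of epithelial genes was not tested.

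**Figure D4:**
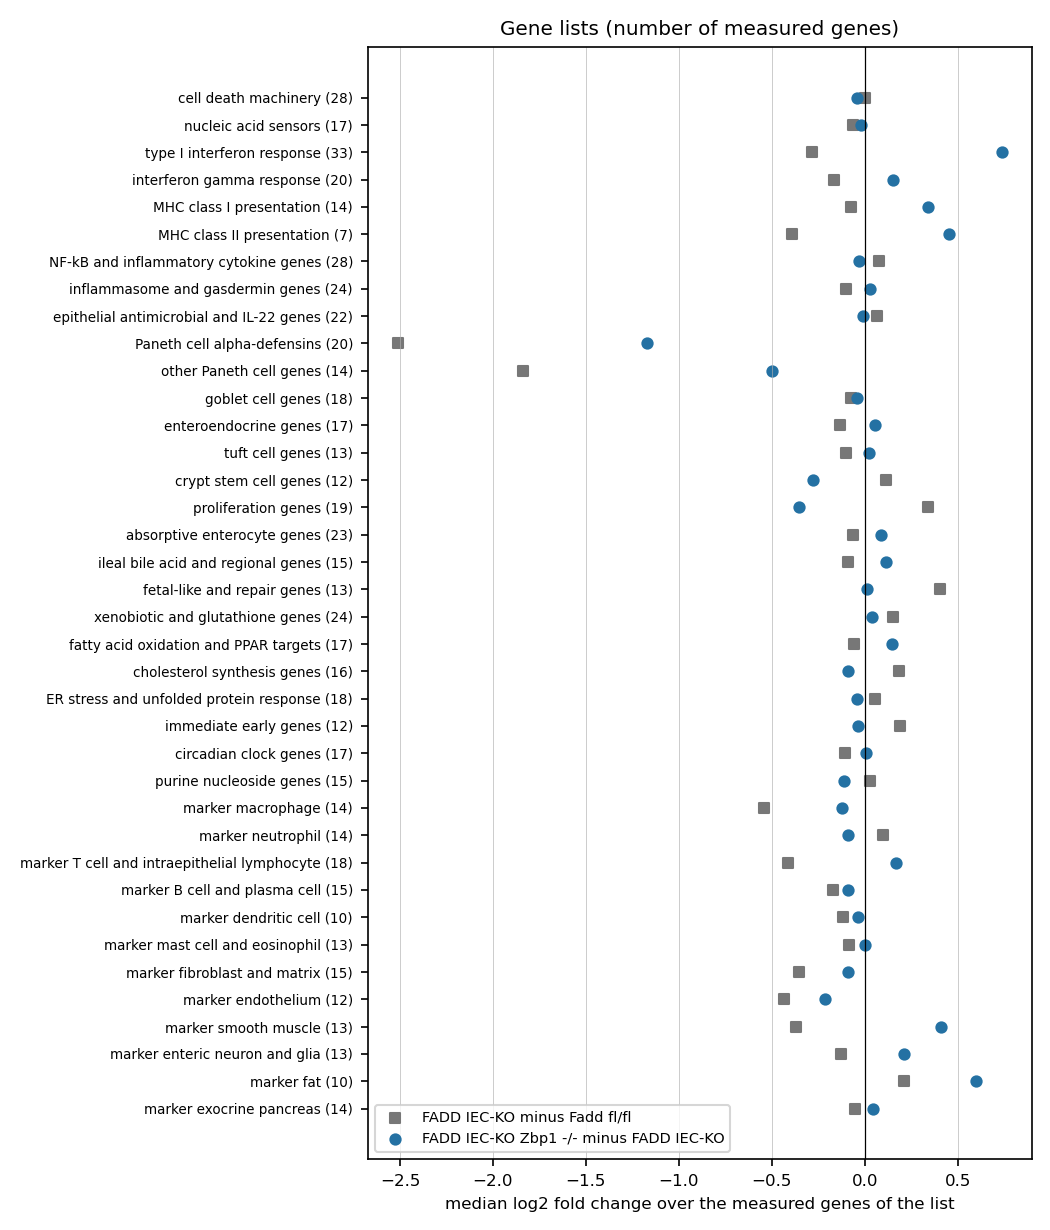
Median log2 fold change (x axis) of the measured genes of each list (y axis, number of genes in brackets) for double mutants against FADD IEC-KO (circles) and for FADD IEC-KO against Fadd fl/fl (squares); the comparisons share the FADD IEC-KO arrays. The type I interferon list has the highest circle at 0.74 and the alpha-defensins the lowest at -1.17.

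Genes beside Zbp1 on chromosome 2 were examined because sequence next to a targeted gene is inherited with the mutant allele. Of the 100 measured genes nearest in gene order (50 on each side), 1 rose and 9 fell, against 0.857% and 2.47% of all genes. Bmp7, a secreted signalling protein, and Rae1, an RNA export factor, lie 6 and 4 places before Zbp1. Bmp7 read 5.76, 5.54, 5.82, 5.85 and 5.86 in the double mutants and 6.29, 6.48, 6.21, 6.14 and 6.51 in FADD IEC-KO (-0.56 ± 0.15, limma adjusted p = 0.0275). Rae1 fell by 0.37 ± 0.10; both lost their calls without double mutants 1 or 5 or FADD IEC-KO replicates 3 or 5, Bmp7 also without double mutant 2 or FADD IEC-KO replicate 2 and Rae1 without double mutant 4 (Bmp7 -0.59 to -0.51, Rae1 -0.37 to -0.31). Phactr3 rose by 0.53 ± 0.15 and was called in the absence of double mutant 3 or FADD IEC-KO replicate 4 but not of any other mouse (0.45 to 0.55).

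The other 7 genes that fell lay 20 to 33 places after Zbp1, within a run of 17 zinc-finger genes (18 to 34 places after it) that are alike in sequence, so that their probes may share signal. The run was marked off after its values were seen and is described without a test. All 17 had a negative change against FADD IEC-KO (median -0.34), and against Fadd fl/fl 17 of 17 fell (median -0.46). The called genes were Zfp971 (-0.32 ± 0.08), Gm6710 (-0.45 ± 0.11), Gm2026 (-0.44 ± 0.10), Gm14434 (-0.38 ± 0.10), Gm14308 (-0.38 ± 0.11), Gm14327 (-0.33 ± 0.09) and Gm14326 (-0.39 ± 0.10). Each lost its call without double mutant 5 (-0.35 to -0.26), all but Gm6710 and Gm2026 also without double mutant 1, and Gm14434, Gm14308, Gm14327 and Gm14326 also without FADD IEC-KO replicate 2. The mean of the 17 genes was 8.57, 8.87, 8.93, 8.93 and 8.43 in the double mutants and 9.06, 9.12, 8.99, 9.30 and 9.04 in FADD IEC-KO, without overlap, and 8.78 to 9.39 over the mice of the other 7 groups.

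**Figure D5:**
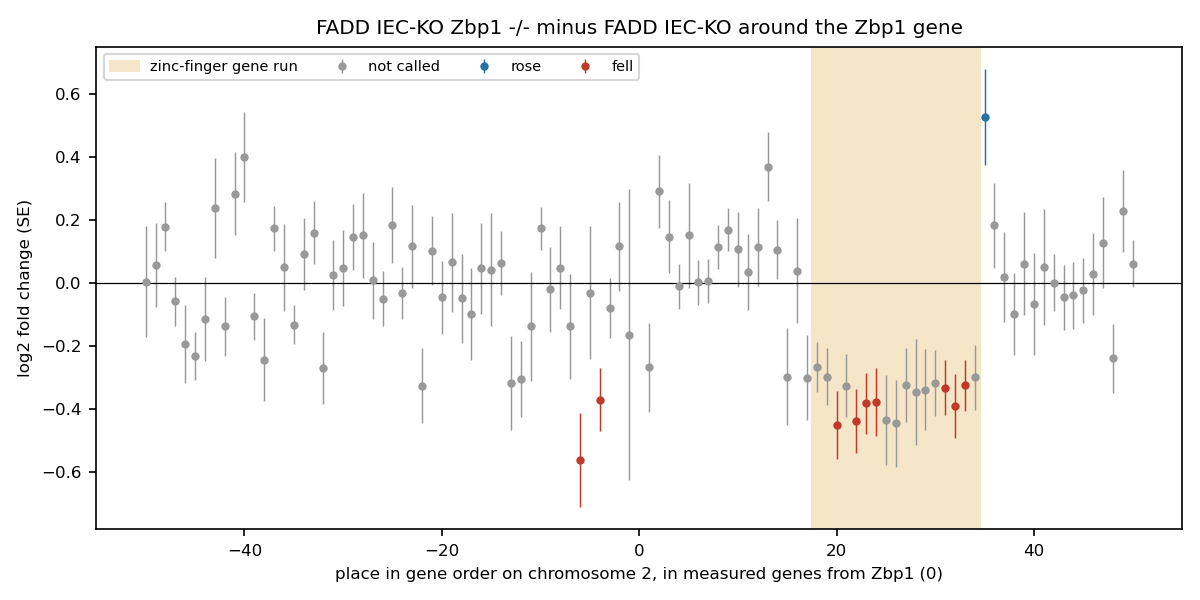
Log2 fold change with SE (y axis) of the 100 measured genes nearest Zbp1, in order along chromosome 2 (x axis, places from Zbp1 at 0), for double mutants against FADD IEC-KO. The shaded run of 17 zinc-finger genes lies wholly below 0, between -0.45 and -0.27.

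The titles carry numbers of unstated meaning, under 100 in 3 double mutants and 4 FADD IEC-KO mice and 200 or more in the rest. Among the mice numbered under 100, 7 genes were called. All 648 kept their sign, 572 at an unadjusted p under 0.05. That is no independent check, because the 648 were chosen partly on these same mice. In the mice numbered under 100 Isg15 had 1.83, Rtp4 1.76, Oas2 1.19, Irf7 0.98, Apol9a 0.82, S100a8 -1.27, Scnn1g -1.04, Spink4 -0.73, Slc12a2 -0.59, Mki67 -0.38 and Zbp1 -0.86 on the log2 scale. With the number series as a term in the fit 998 genes were called, all 648 among them.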

How the data were processed

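RNA of frozen whole ileum was labelled with a WT PLUS kit, per the labels' protocols, and read on Affymetrix arrays, 1 per mouse. The authors deposited log2 intensities, and the submitters' processing notes name Affymetrix Expression Console and Transcriptome Analysis Console; versions and the summarization method are not given in the sources used here. Of 22142 probes, 19527 had 1 gene symbol and 2615 none; the probe of highest mean was kept per gene, leaving 19494. No filter on dim genes was applied. limma 3.58.1 (R 4.3.3) fitted 1 mean per group to all 45 arrays (36 residual degrees of freedom), followed by eBayes and Benjamini-Hochberg adjustment over 19494 genes per comparison. A gene was called where its adjusted p was below 0.05. Errors are standard errors. The fit was tested on simulated data. The number of arrays limits the precision.

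Groups followed the sample titles. Members and 39 gene lists were chosen with earlier results of these data known. Named genes were the targeted genes, the called genes separating all mice with the 12 highest and the 12 lowest log2 changes, up to 3 called members per list described (or the 3 of highest mean), called genes among the 50 neighbours on each side of Zbp1, and those said to be chosen by their values, with the remaining called interferon genes, Il1rn, Tnf, Lyz1, Mptx2, Usp18 and Trim30a added after their values were seen. Clone-named genes were not printed except near Zbp1. Alternatives were a fit of the compared groups alone, array weights, robust eBayes, the title number series as a term or subset, a Y-linked level as a term, median centring, quantile normalization, means of at least 5 or 6, all named probes, and leaving out each mouse. Gene order and promoters came from RefSeq (GRCm38.p6).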

Additional observations from a re-analysis of the deposited data

Results flagged for a closer look

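Of 58 genes examined in both groups of 5 mice, 2 had a mouse far from the others, where chance alone flags about 1 in 20 groups. Sptb, an erythroid spectrin gene among the risers, read 4.15 in FADD IEC-KO replicate 5, against 4.53 to 4.68 in the rest of that group. Rnaseh2b read 6.11 in FADD IEC-KO Zbp1 -/- replicate 4, against 6.63 to 6.80 in its group; its call held without that mouse.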

How the results depend on the processing

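For double mutants against FADD IEC-KO, 648 genes were called; the number was 0 in the fit of the 2 groups alone (8 residual degrees of freedom), 337 with array weights, 998 with the title number series as a term, 7 among numbers under 100, 999 over genes with a mean of at least 6, and 239 to 1041 with 1 mouse left out. FADD IEC-KO against Fadd fl/fl gave 153 in its own 2-group fit, 3 among numbers under 100, 1121 over genes with a mean of at least 6 and 309 to 1090 with 1 mouse left out. Double mutants against Fadd fl/fl gave 820, 72 and 1507 to 2421 (own fit, numbers under 100, 1 mouse left out), against FADD IEC-KO Mlkl -/- 323, 99 and 467 to 1019, and against FADD IEC-KO RIPK3 IEC-KO 68, 14 and 128 to 553. The fits of 2 groups, of numbers under 100 and with 1 mouse left out use fewer arrays, and the limit on the mean fewer genes; array weights and the number series use the same arrays and genes. The cause was not tested.

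Of 63 called genes named here, none changed sign under any alternative, 28 stayed called whichever mouse was left out, 63 with the number series or the Y-linked level as a term, 58 after quantile normalization, 33 with array weights, 4 among numbers under 100 and 0 in the fit of the 2 groups alone. The fit of the 2 groups alone repeats the same fold changes, so no sign could change there. Under other alternatives, signs turned among uncalled genes. Casp8 had 0.023 among numbers under 100 and -0.11 to 0.020 with 1 mouse left out (positive without double mutant 4). Ripk3 had -0.0062 with array weights, -0.0099 with the number series as a term and -0.094 to 0.14 with 1 mouse left out, negative without double mutants 3 or 5 or FADD IEC-KO replicates 2 or 4. Mlkl had -0.025 to 0.32, Nos2 -0.024 to 0.34, Irgm1 -0.032 to 0.51 and Psme1 -0.029 to 0.16 with 1 mouse left out, in each case lowest without FADD IEC-KO replicate 4; Psme1 was also negative without double mutant 3. The planned sex index needed Xist and Ddx3y, not analysed here; the mean of Eif2s3y, Kdm5d and Uty was used in its place, chosen after seeing the data. No paired analysis was possible because the title numbers are unique and replicate numbers follow accession order. Genes with a mean under 5 made up 9.58% of risers, 1.87% of fallers and 25.5% of all genes, so dim genes limit what could be called.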

Other observations

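Probes without a gene symbol, 11.8% of all probes, were counted as well. Their share of rises was near that over all probes, and their share of falls was lower. In a fit over all 22142 probes, 23 of the 2615 unnamed probes rose and 39 fell in double mutants against FADD IEC-KO (limma adjusted p under 0.05), beside 188 rises and 513 falls in all.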
